A study of Mus musculus with 36 samples.

Results

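Ndnf, Sema4a, Atp6v0e2, Slc19a2, Ndrg4, Klhdc7a and Lad1 are 7 of the 25626 genes listed for these mouse hearts, of which 16275 were tested. They were chosen by name as genes outside the immune response whose values were higher in hearts labelled cSirt4-Tg than in Control hearts after sham surgery, after pressure overload and after pressure overload with MitoQ. The difference between the labels was therefore the ground of the choice, and it is described without a test. All 7 genes passed the filter on low values, which asked for 10 or more in 6 or more libraries.

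Whole hearts of 36 mice were sequenced in 6 groups of 6. The groups crossed genotype, cSirt4-Tg (Tg) or Control (Con), with sham surgery and vehicle (Tg-Sham and Con-Sham), transverse aortic constriction and vehicle (Tg-TAC and Con-TAC), and the same constriction with MitoQ (Tg-TAC-MQ and Con-TAC-MQ). Transverse aortic constriction (TAC) raises the pressure load of the left ventricle, and MitoQ is an antioxidant that accumulates in mitochondria. The stated aim concerned how reactive oxygen species from mitochondria may worsen cardiomyopathy in the transgenic mice. The labels give neither the age and sex of the mice, nor the strain, the promoter of the transgene, the time after surgery or the MitoQ dose.

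The 7 genes share no pathway. Ndnf is a secreted glycoprotein that supports the survival of neurons and, in mice, of endothelial cells, and Sema4a is a membrane semaphorin, a guidance ligand that binds plexins and also stimulates T cells. Atp6v0e2 is a small subunit in the membrane sector of the vacuolar proton pump (V-ATPase), which acidifies lysosomes and endosomes. Slc19a2 carries thiamine into cells, where it becomes the cofactor of pyruvate and 2-oxoglutarate dehydrogenase, enzymes on which the heart relies for oxidation. Ndrg4 is a cytoplasmic member of the NDRG family, abundant in heart and brain, and in zebrafish it is needed for the growth of the heart. Lad1 (ladinin) belongs to the anchoring filaments of epithelial basement membranes, and Klhdc7a is a kelch-repeat protein whose role is little known. Because Sema4a also acts in immune cells, "outside the immune response" holds for it only in part.

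The libraries held 14.83 to 60.01 M reads assigned to listed genes, with a median of 28.4 M, and transcripts of the mitochondrial genome took 13.12% to 27.92% of them. Values are normalized read counts, each library's reads divided by its own size factor, and they are not corrected for gene length, so the levels of different genes are not compared. The row of Sirt4 itself, a mitochondrial sirtuin (mm39 chr5:115616069-115622784), did not follow the label. It averaged 377.2 ± 48.0 in Tg-Sham against 411.7 ± 96.6 in Con-Sham, 361.8 ± 57.8 in Tg-TAC against 341.0 ± 49.6 in Con-TAC, and 349.2 ± 22.5 in Tg-TAC-MQ against 353.2 ± 18.6 in Con-TAC-MQ (SD, n = 6 each), with overlapping ranges in each pair. After TAC the order of the means turned without libraries Tg-TAC 6 and Con-TAC 6, at 339.6 ± 21.7 in Tg-TAC against 358.5 ± 27.4 in Con-TAC (SD, n = 5 each). The sources used here do not say whether the transcript of the transgene is counted in that row, so hearts are named by their label throughout. Cardiomyocyte markers were high in every library, with a sum of 8 genes of at least 1003417.

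Library Tg-TAC 6 stood apart from the other hearts of its label. Over the 7 genes it was nearer the Con-TAC mean than the Tg-TAC mean for 6, whereas in the other Tg-TAC hearts this held for at most 1. The same was seen in 29 other genes that separated the labels in both sham and MitoQ hearts, chosen without the vehicle TAC libraries. Tg-TAC 6 lay on the cSirt4-Tg side for 11 of the 29 (37.9%) and the other Tg-TAC hearts for 21 to 25, while Con-TAC 6 lay on that side for 15 (51.7%) and the other Con-TAC hearts for 2 to 13. Whether the labels of Tg-TAC 6 and Con-TAC 6 were exchanged was not tested, and both were kept as given, so what the vehicle TAC values mean depends on these labels. The differences of the 7 genes are therefore also given without Tg-TAC 6 and Con-TAC 6, an alternative chosen after the data were seen. Some counts that rest on the vehicle TAC groups are given without them too, and the other counts include both. Means of single groups and values of named relatives and neighbours include both unless stated. Library Tg-TAC 4 differed in another way, with the lowest depth, a sum of 8515.0 for 4 adipocyte markers, beside at most 101.8 in any other heart, and a sum of 2281.5 for 6 mesothelial markers, beside at most 505.0. Without it the log2 differences of the 7 genes by label after TAC moved to 0.01 for Sema4a and 1.07 for Lad1, and by 0.03 or less for the others.

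**Figure D1:**
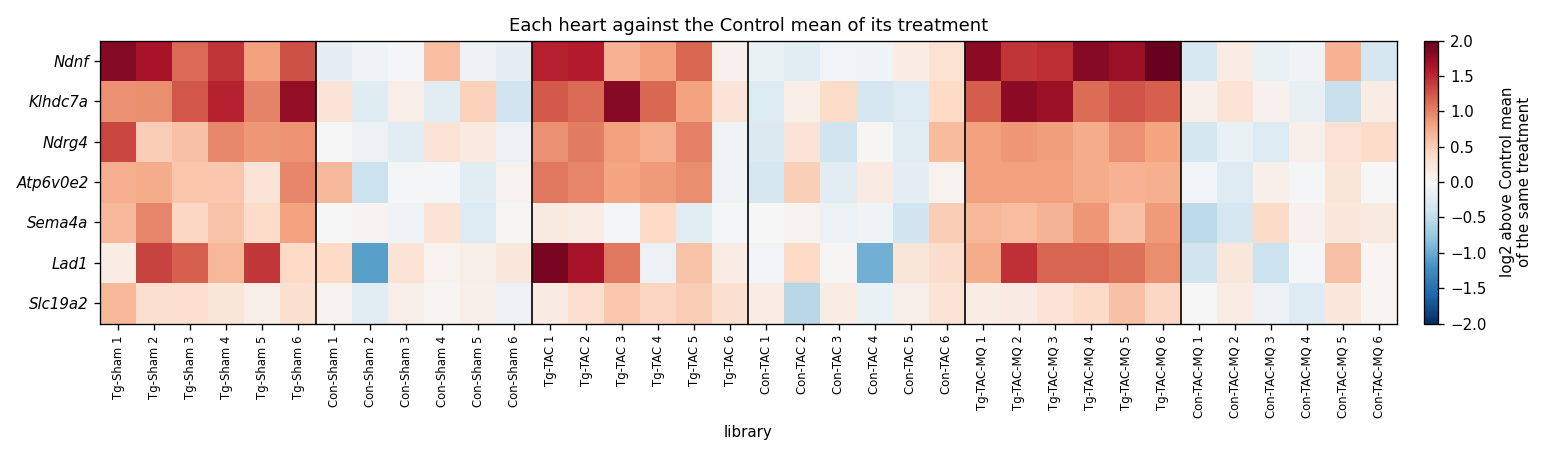
Colour gives, for each of the 36 libraries (columns, by group) and 7 genes (rows), the log2 value minus the mean of the Control hearts of the same treatment, with colours limited at 2. Most Tg columns are red across the rows, Sema4a is pale in the Tg-TAC hearts, and Tg-TAC 6 is pale in all 7 rows.

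The genes lie on 5 chromosomes, and no other listed gene overlaps any of them. In the mm39 coordinates of the deposited table, Ndnf (ENSMUSG00000049001) spans chr6:65648574-65689310 on the plus strand and Atp6v0e2 (ENSMUSG00000039347) chr6:48514549-48518735 on the plus strand. Sema4a (ENSMUSG00000028064) spans chr3:88343266-88368489 on the minus strand, and Klhdc7a (ENSMUSG00000078234) chr4:139687531-139695337 on the minus strand. Ndrg4 (ENSMUSG00000036564) spans chr8:96403608-96441747 on the plus strand. Lad1 (ENSMUSG00000041782) and Slc19a2 (ENSMUSG00000040918) lie far apart on chromosome 1, at 135746336-135761080 and 164076615-164092954, both on the plus strand.

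Since the 7 genes were chosen for moving with the same label, their promoters were read for what they share. RefSeq's promoter table, of the older build GRCm38.p6, held 6 of the 7 genes, all but Ndnf, each promoter running from 250 bases before to 50 after a start. The 4 genes with a single start are shown: Klhdc7a (GRCm38.p6 chr4:139967977-139968276, minus strand), Atp6v0e2 (chr6:48537319-48537618, plus), Lad1 (chr1:135818348-135818647, plus) and Slc19a2 (chr1:164248796-164249095, plus). Capitals mark each match, on either strand, to the E-box CACGTG, the GC box GGGCGG, the CCAAT box, the TATA box TATAAA or the GATA site AGATAA, and no matches overlap.
Klhdc7a: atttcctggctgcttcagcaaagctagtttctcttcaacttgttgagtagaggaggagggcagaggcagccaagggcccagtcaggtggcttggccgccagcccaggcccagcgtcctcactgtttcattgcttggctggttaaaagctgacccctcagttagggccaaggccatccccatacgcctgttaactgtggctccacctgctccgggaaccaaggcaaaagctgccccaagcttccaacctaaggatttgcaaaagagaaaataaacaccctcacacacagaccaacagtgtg
Atp6v0e2: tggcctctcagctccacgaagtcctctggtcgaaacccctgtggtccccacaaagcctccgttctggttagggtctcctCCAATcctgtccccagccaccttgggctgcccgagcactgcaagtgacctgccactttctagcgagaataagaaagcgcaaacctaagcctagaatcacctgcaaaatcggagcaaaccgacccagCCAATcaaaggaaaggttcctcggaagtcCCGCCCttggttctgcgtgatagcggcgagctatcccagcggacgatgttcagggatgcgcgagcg
Lad1: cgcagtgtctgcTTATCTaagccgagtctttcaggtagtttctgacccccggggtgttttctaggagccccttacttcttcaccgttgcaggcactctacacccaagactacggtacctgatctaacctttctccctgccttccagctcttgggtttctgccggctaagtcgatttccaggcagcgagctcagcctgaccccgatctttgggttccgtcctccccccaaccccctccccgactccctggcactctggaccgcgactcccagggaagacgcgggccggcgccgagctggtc
Slc19a2: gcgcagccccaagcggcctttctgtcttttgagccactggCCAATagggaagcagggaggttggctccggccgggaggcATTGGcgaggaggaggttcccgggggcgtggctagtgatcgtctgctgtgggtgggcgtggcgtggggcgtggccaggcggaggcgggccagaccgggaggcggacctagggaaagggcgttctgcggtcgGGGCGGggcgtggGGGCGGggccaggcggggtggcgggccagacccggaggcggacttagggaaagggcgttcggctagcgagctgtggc
No motif was common to the 4 sequences. Slc19a2 held 2 matches to the GC box and 2 to the CCAAT box, and Atp6v0e2 held 1 and 2. Lad1 held 1 match to the GATA site, and Klhdc7a had none of the 5 motifs in this window. Among all 32851 promoters of the table, 35.7% held the GC box, 37.4% the CCAAT box, 13.6% the TATA box, 11.2% the GATA site and 7.2% the E-box. CG dinucleotides numbered 28 in Slc19a2, 18 in Lad1, 18 in Atp6v0e2 and 4 in Klhdc7a, beside a median of 7 over the table. The GC content was 72.0%, 60.3%, 57.7% and 54.3% in the same order, beside a median of 52.7%. Ndrg4 and Sema4a have 4 annotated starts each in the table, and a value per gene does not say which start was used. These matches describe letters in a window and were not tested for use.

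Ndnf showed the widest separation of the labels in sham and MitoQ hearts. Its values in sham hearts were 409.9 to 832.4 in Tg-Sham (median 593.7), against 202.5 to 353.0 in Con-Sham (median 217.4). After TAC they were 182.7 to 512.4 in Tg-TAC (median 340.9), against 148.7 to 212.7 in Con-TAC (median 164.1). With MitoQ they were 512.4 to 839.0 in Tg-TAC-MQ (median 644.8), against 150.9 to 308.4 in Con-TAC-MQ (median 177.7). The labels did not overlap in sham or MitoQ hearts, and after TAC only Tg-TAC 6, at 182.7, fell among the Control values. The log2 difference, Tg minus Con, was 1.35 (SE 0.20) in sham hearts, 0.98 (SE 0.20) after TAC and 1.72 (SE 0.20) with MitoQ, and after TAC it was 1.22 without Tg-TAC 6 and Con-TAC 6. For this and each later value, in whole hearts a change in the number of cells of a type and a change in RNA per cell cannot be told apart.

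Sema4a, the other ligand, followed the label in sham and MitoQ hearts only. In sham hearts it had 160.6 to 244.8 in Tg-Sham (median 189.2), against 103.0 to 149.9 in Con-Sham (median 124.5). With MitoQ it had 185.2 to 224.6 in Tg-TAC-MQ (median 196.8), against 85.1 to 160.4 in Con-TAC-MQ (median 135.3). After TAC it had 115.5 to 179.6 in Tg-TAC (median 142.0), against 104.1 to 191.4 in Con-TAC (median 131.9). In the vehicle TAC hearts the ranges overlapped, and the single highest value, 191.4, belonged to Con-TAC 6. The log2 difference was 0.63 (SE 0.15) in sham hearts, 0.71 (SE 0.15) with MitoQ and 0.08 (SE 0.15) after TAC, or 0.20 without Tg-TAC 6 and Con-TAC 6. For this gene the description "higher in cSirt4-Tg after TAC" is thus not borne out beyond the spread between hearts.

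Among the transport genes, the pump subunit Atp6v0e2 was higher under the cSirt4-Tg label in each treatment, with narrow ranges in the MitoQ hearts. It had 381.0 to 416.4 in Tg-TAC-MQ (median 406.1), against 197.9 to 279.3 in Con-TAC-MQ (median 233.6). In sham hearts it had 321.1 to 527.9 in Tg-Sham (median 417.2), against 198.0 to 419.3 in Con-Sham (median 261.5). After TAC it had 261.3 to 577.3 in Tg-TAC (median 516.2), against 220.3 to 388.0 in Con-TAC (median 269.2). The overlap came from Con-Sham 1, at 419.3, among the sham hearts and from Tg-TAC 6, at 261.3, among the vehicle TAC hearts, where the other Tg-TAC hearts lay above every Con-TAC heart. Its log2 differences were 0.63 (SE 0.16) in sham, 0.75 (SE 0.16) after TAC, 0.93 without Tg-TAC 6 and Con-TAC 6, and 0.76 (SE 0.16) with MitoQ.

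The thiamine transporter Slc19a2 had the smallest differences in sham and MitoQ hearts. Its values were 289.0 to 424.1 in Tg-Sham (median 334.6), against 231.0 to 288.3 in Con-Sham (median 278.3). They were 331.7 to 430.5 in Tg-TAC (median 384.4), against 199.8 to 359.0 in Con-TAC (median 323.4). They were 346.4 to 468.3 in Tg-TAC-MQ (median 392.6), against 261.1 to 362.4 in Con-TAC-MQ (median 314.8). In sham hearts the lowest Tg value, 289.0, was just above the highest Con value, 288.3, and in the other treatments the ranges overlapped. The log2 differences were 0.33 (SE 0.11), 0.38 (SE 0.11) and 0.32 (SE 0.11) in sham, TAC and MitoQ hearts, and 0.45 after TAC without Tg-TAC 6 and Con-TAC 6.

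Ndrg4, the NDRG family member of heart muscle and brain, had 7885.0 to 14253.1 in Tg-Sham (median 10352.1), against 4812.5 to 6688.5 in Con-Sham (median 5437.7). After TAC it had 6466.7 to 13966.0 in Tg-TAC (median 12565.7), against 5188.2 to 10681.6 in Con-TAC (median 6411.4). With MitoQ it had 10148.6 to 11456.8 in Tg-TAC-MQ (median 10793.1), against 4761.8 to 7858.0 in Con-TAC-MQ (median 6001.5). In the vehicle TAC groups the lowest Tg heart, 6466.7, was Tg-TAC 6, and the highest Con heart, 10681.6, was Con-TAC 6. Without that pair no Tg-TAC heart was below 11321.1 and no Con-TAC heart above 8198.8. The log2 difference was 0.86 (SE 0.17) in sham, 0.74 (SE 0.17) after TAC, 1.03 without that pair, and 0.83 (SE 0.17) with MitoQ.

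Klhdc7a, the kelch-repeat gene, had the widest separation after TAC and the second widest, after Ndnf, in sham and MitoQ hearts. It had 324.0 to 586.6 in Tg-Sham (median 376.9), against 131.0 to 237.0 in Con-Sham (median 168.2). It had 174.6 to 515.3 in Tg-TAC (median 319.7), against 114.5 to 190.6 in Con-TAC (median 139.3), and the 174.6 was Tg-TAC 6. It had 409.9 to 651.6 in Tg-TAC-MQ (median 444.5), against 138.1 to 228.3 in Con-TAC-MQ (median 200.9). The labels were apart in sham and MitoQ hearts. The log2 difference was 1.23 (SE 0.20) in sham, 1.06 (SE 0.20) after TAC, 1.30 without Tg-TAC 6 and Con-TAC 6, and 1.38 (SE 0.20) with MitoQ.

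Lad1, the basement membrane gene, varied most between hearts of a group, with a within-group SD of 0.53 on the log2 scale, at the 72.5th percentile of the tested genes, against 0.19 and the 27.8th percentile for Slc19a2. In sham hearts it had 118.1 to 286.9 in Tg-Sham (median 207.5), against 49.5 to 140.8 in Con-Sham (median 120.4). After TAC it had 89.8 to 363.2 in Tg-TAC (median 174.4), against 49.5 to 127.8 in Con-TAC (median 106.8). With MitoQ it had 151.8 to 251.0 in Tg-TAC-MQ (median 199.9), against 66.9 to 137.1 in Con-TAC-MQ (median 90.7). The labels were apart with MitoQ alone, and 4 of 6 Tg hearts exceeded every Con heart in the sham and in the vehicle TAC groups. The log2 differences were 0.86 (SE 0.29) in sham, 0.87 (SE 0.29) after TAC, 1.09 without Tg-TAC 6 and Con-TAC 6, and 1.09 (SE 0.29) with MitoQ.

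**Figure D2:**
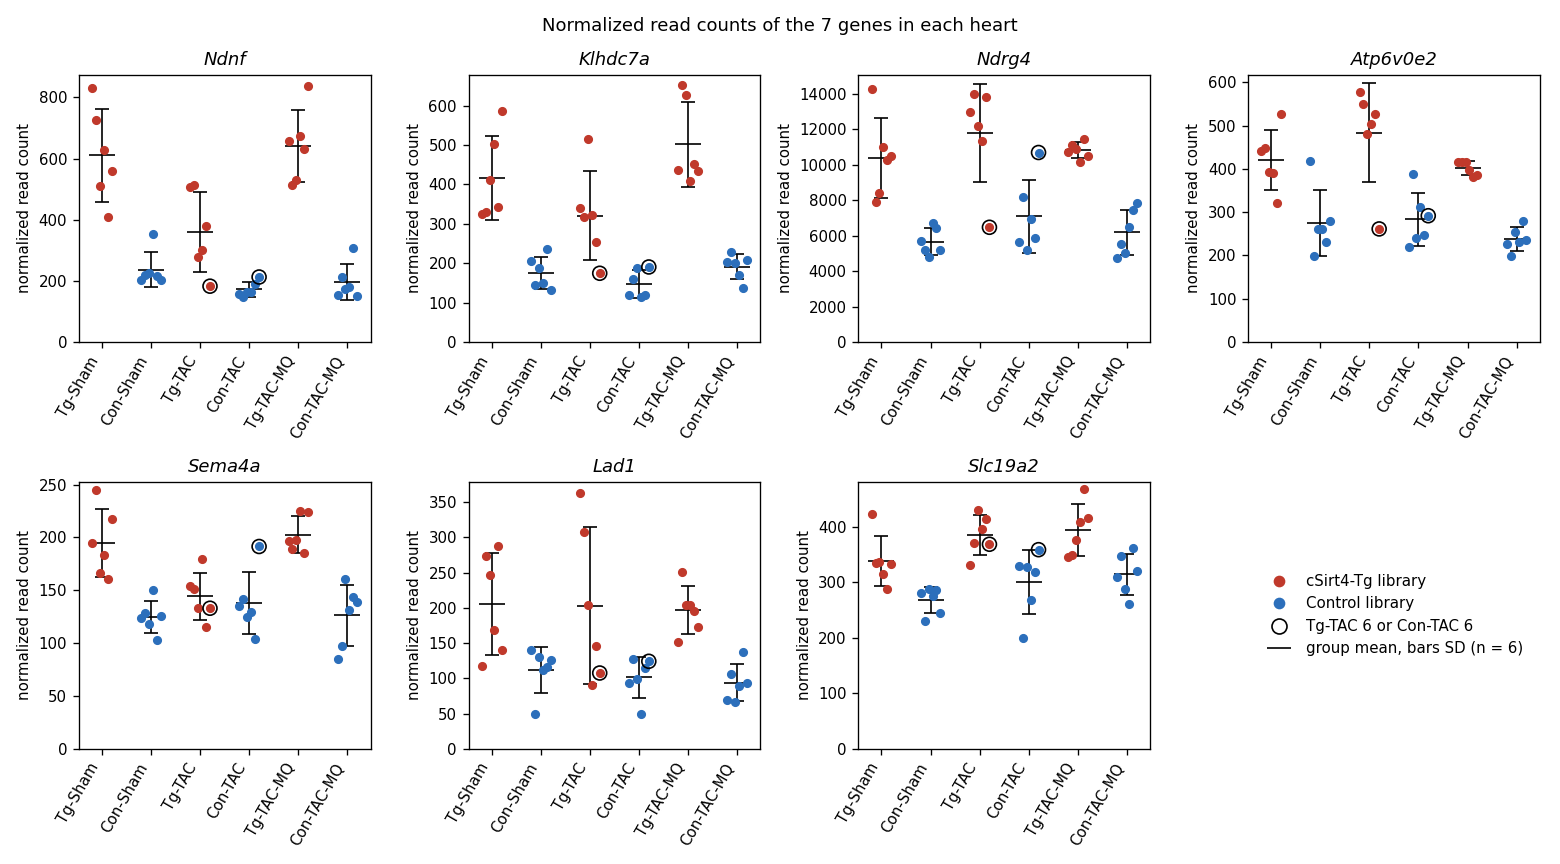
Each panel shows the normalized read count of a gene (vertical axis, from 0) in the 6 hearts of each group, with the group mean and SD. The cSirt4-Tg hearts (red) of Ndnf, Klhdc7a and Ndrg4 lie above the Control hearts (blue) in sham and MitoQ groups, and the ringed Tg-TAC 6 lies low in Ndrg4 (6466.7) and Atp6v0e2 (261.3).

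Counted over the 7 genes, every Tg heart lay above every Con heart for 5 in sham (Ndnf, Klhdc7a, Ndrg4, Sema4a and Slc19a2), where 2.75% of all tested genes did so. The count was 0 after TAC, where 0.559% of all tested genes did so, and 6, all but Slc19a2, with MitoQ, where the share was 0.565%. Without Tg-TAC 6 and Con-TAC 6, all 5 Tg-TAC hearts lay above every Con-TAC heart for Ndnf, Klhdc7a, Ndrg4, Atp6v0e2 and Slc19a2. For Sema4a 3 of the 5 hearts did so and for Lad1 4, and the share of all tested genes was not counted there. These counts restate the choice of the genes and are read no further. The library names carry a number of unknown meaning, 7 to 14 or 29 to 31 in the sham hearts, 7 to 14 in all vehicle TAC hearts but Tg-TAC 6 and Con-TAC 6, and 20 to 21 in all MitoQ hearts. Within each of these classes that holds both labels the difference was above 0 for all 7 genes. Since the genes were chosen for this in the same hearts, the sign restates the choice as well. In sham hearts the difference ranged from 0.45 (Slc19a2) to 1.64 (Ndnf) at 7 to 14 and from 0.21 (Slc19a2) to 1.48 (Klhdc7a) at 29 to 31.

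**Figure D3:**
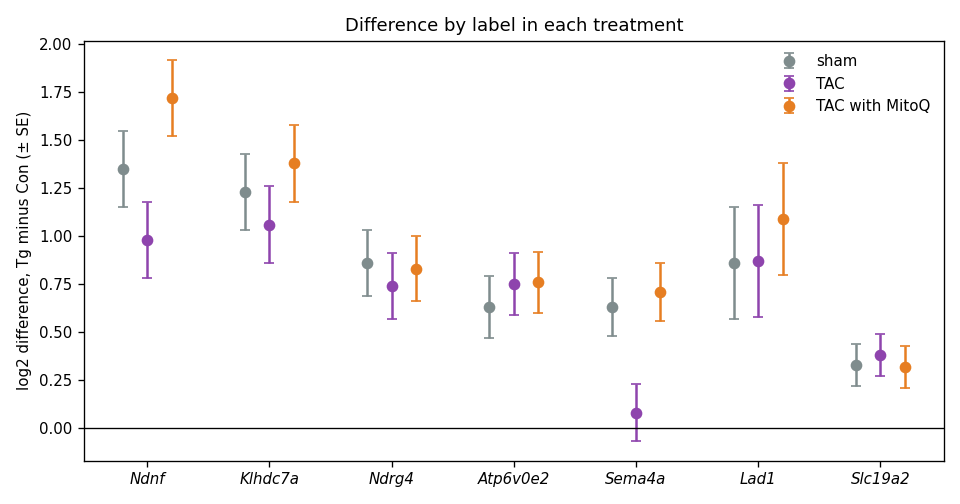
Points give the log2 difference, Tg minus Con, of each gene in sham, TAC and TAC with MitoQ hearts, with bars of 1 SE (n = 6 hearts a group). All points are above 0, and Sema4a after TAC (0.08) is the only point whose bar reaches 0.

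Some lists of cell type markers moved with the label too. The 8 cardiomyocyte markers summed to 1705264.2 to 2103650.3 in Tg-Sham against 2133888.2 to 2387309.9 in Con-Sham, without overlap, 1003417.0 to 2224845.1 in Tg-TAC against 1144313.9 to 2138117.4 in Con-TAC, and 1682733.8 to 1784810.1 in Tg-TAC-MQ against 1266055.4 to 2209606.5 in Con-TAC-MQ. Of these 8, 7 were below 0 in sham hearts, 8 after TAC and 8 with MitoQ, with medians of -0.22, -0.39 and -0.07 on the log2 scale. Limma called 1 of them, lower after TAC, where 535 of the 16275 tested genes were called lower. The 12 macrophage markers summed to 13408.7 to 19607.9 in Tg-Sham against 7736.5 to 10343.4 in Con-Sham, 9588.4 to 23365.6 in Tg-TAC against 9188.4 to 12777.0 in Con-TAC, and 15681.7 to 16979.4 in Tg-TAC-MQ against 6514.4 to 22791.1 in Con-TAC-MQ. Of these 12, limma called 7 higher under the label in sham hearts, 6 after TAC (10 without Tg-TAC 6 and Con-TAC 6, 0 in a fit of the hearts of these groups alone) and 0 with MitoQ (8 at an unadjusted p under 0.05, 0 by edgeR and 1 by DESeq2), beside 0.786%, 3.19% and 0.0492% of all tested genes called higher. After TAC, 4905 of the 16275 tested genes were called in either direction without that pair, and 1 in the fit of these groups alone. The 7 fibroblast markers summed to 30063.8 to 39748.0 in Tg-Sham against 21286.9 to 24318.1 in Con-Sham, 28823.1 to 76679.9 in Tg-TAC against 23455.9 to 47364.8 in Con-TAC, and 37670.8 to 43102.8 in Tg-TAC-MQ against 20601.1 to 61887.8 in Con-TAC-MQ. The 7 epithelial markers, of which 3 were tested, summed to 28.1 to 213.1 in Tg-Sham against 6.57 to 35.2 in Con-Sham, 43.9 to 998.9 in Tg-TAC against 13.2 to 616.8 in Con-TAC, and 53.8 to 92.3 in Tg-TAC-MQ against 10.7 to 200.8 in Con-TAC-MQ. Tg-TAC 6 had the lowest Tg-TAC sum in the macrophage, fibroblast and epithelial lists, and the epithelial 616.8 was Con-TAC 6, beside at most 59.6 in the other Con-TAC hearts. Of the cardiomyocyte sums, 2224845.1 was Tg-TAC 6 and 1144313.9 was Con-TAC 6. The other Tg-TAC hearts had at most 1624228.9 and the other Con-TAC hearts at least 1612912.8. Con-TAC-MQ 3 had the highest macrophage (22791.1), fibroblast (61887.8) and epithelial (200.8) sums of the MitoQ hearts and the lowest cardiomyocyte sum (1266055.4). Of 6 endothelial markers 0 were called by label in each treatment, beside 0.873%, 6.48% and 0.0737% of all tested genes. Their medians were -0.12, -0.17 and -0.09 in sham, TAC and MitoQ hearts. The 6 smooth muscle and pericyte markers had medians of -0.27, 0.55 and -0.08, with 1 called, higher after TAC. The part of these cell types in the values of the 7 genes was not tested.

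The effect of TAC was tested as the mean of both labels, TAC minus sham. With groups of equal size and spread, it is by construction uncorrelated with the differences used to choose the genes. Spreads differed, as for Ndnf, with a log2 SD of 0.57 in Tg-TAC and 0.19 in Con-TAC. Leaving out a single library also makes the sizes unequal. The tests of the 7 genes for TAC and MitoQ are thus not fully free of the choice. Of the 7 genes 1 passed, Ndnf, where 27.5% of all tested genes did (13.3% higher and 14.2% lower). In genes these calls were 2157 higher and 2318 lower, or 3094 and 1478 when the libraries were scaled to 1 total without the transcripts of the mitochondrial genome. Ndnf averaged 360.4 ± 131.9 in Tg-TAC against 611.1 ± 152.1 in Tg-Sham, and 172.7 ± 23.9 in Con-TAC against 236.8 ± 57.6 in Con-Sham (SD, n = 6 each). The pooled log2 difference was -0.62 (SE 0.14, 95% interval -0.91 to -0.33, limma adjusted p = 0.00156), a fold of 0.65, and 12 of 12 TAC hearts were below the sham mean of their label. It was -0.57 without Tg-TAC 6 and Con-TAC 6 (adjusted p = 0.0011) and -0.60 in the libraries numbered 7 to 14 (adjusted p = 0.00611).

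The other 6 genes did not pass for TAC, with intervals that leave room for changes in either direction or close to 0. Klhdc7a differed by -0.33 (SE 0.14, adjusted p = 0.0767), with 9 of 12 TAC hearts below their sham mean, and it passed without Tg-TAC 3, at -0.40 (adjusted p = 0.0232). Ndrg4 differed by 0.23 (SE 0.12, adjusted p = 0.148), and passed at 0.31 without Tg-TAC 6 (adjusted p = 0.0187) and at 0.25 without Tg-TAC 6 and Con-TAC 6 (adjusted p = 0.0383). Slc19a2 differed by 0.17 (SE 0.08, adjusted p = 0.116), and passed at 0.22 without Con-TAC 2 (adjusted p = 0.0188), its lowest Con-TAC heart at 199.8. Each of these 3 genes thus passed when a single library was left out. Slc19a2 also passed at 0.24 under the scaling without mitochondrial transcripts (adjusted p = 0.041), and did not without Tg-TAC 6 and Con-TAC 6 (0.15, adjusted p = 0.174). Atp6v0e2 differed by 0.11 (SE 0.11, adjusted p = 0.478), Sema4a by -0.15 (SE 0.10, adjusted p = 0.278) and Lad1 by -0.13 (SE 0.21, adjusted p = 0.677). Without Tg-TAC 6 and Con-TAC 6 these 3 were 0.19, -0.19 and -0.09, and did not pass.

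MitoQ after TAC, tested in the same way as TAC with MitoQ minus TAC with vehicle, gave 2 of the 7 genes, where 23.7% of all tested genes passed (13.3% higher and 10.3% lower). In genes these were 2168 higher and 1683 lower, or 3411 and 696 under the scaling without mitochondrial transcripts. Ndnf averaged 641.0 ± 117.8 in Tg-TAC-MQ against 360.4 ± 131.9 in Tg-TAC, and 196.7 ± 58.9 in Con-TAC-MQ against 172.7 ± 23.9 in Con-TAC. The pooled difference was 0.53 (SE 0.14, 95% interval 0.24 to 0.81, adjusted p = 0.00709), a fold of 1.44, with 10 of 12 MitoQ hearts above the TAC mean of their label. Klhdc7a averaged 502.0 ± 107.6 in Tg-TAC-MQ against 320.3 ± 113.2 in Tg-TAC, and 191.3 ± 32.0 in Con-TAC-MQ against 148.5 ± 35.5 in Con-TAC (SD, n = 6 each). Its pooled difference was 0.54 (SE 0.14, 95% interval 0.25 to 0.82, adjusted p = 0.00544), a fold of 1.45, with 11 of 12 MitoQ hearts above. Both genes stayed past the threshold whichever single library was left out, in 36 of 36 fits, and without Tg-TAC 6 and Con-TAC 6 (0.47, adjusted p = 0.00658 for Ndnf, and 0.50, adjusted p = 0.0042 for Klhdc7a).

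The MitoQ result is tied to the number in the library names. All MitoQ libraries carry 20 or 21, and the only vehicle TAC library that does is Con-TAC 6, so a fit with the number class as a term draws its MitoQ difference largely from that heart. In that fit Ndnf differed by 0.16 (SE 0.37, adjusted p = 0.831) and Klhdc7a by 0.10 (SE 0.37, adjusted p = 0.901). MitoQ and whatever the number stands for cannot be told apart here. The TAC and MitoQ differences also share the vehicle TAC libraries, so Ndnf's -0.62 and 0.53 are not independent of each other.

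The remaining 5 genes did not pass for MitoQ. Atp6v0e2 differed by -0.23 (SE 0.11, adjusted p = 0.142), with 11 of 12 MitoQ hearts below the TAC mean of their label, and passed at -0.31 without Tg-TAC 6 (adjusted p = 0.0139) and without Tg-TAC 6 and Con-TAC 6 (-0.31, adjusted p = 0.0182). Ndrg4 differed by -0.13 (SE 0.12, adjusted p = 0.454), Sema4a by 0.18 (SE 0.10, adjusted p = 0.205), Lad1 by 0.01 (SE 0.21, adjusted p = 0.972) and Slc19a2 by 0.06 (SE 0.08, adjusted p = 0.66). The 95% intervals of these 5 genes reached from -0.46 (Atp6v0e2) at the low end to 0.43 (Lad1) at the high end. With the number class as a term the MitoQ differences of Sema4a, Lad1 and Slc19a2 fell below 0, and none passed.

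**Figure D4:**
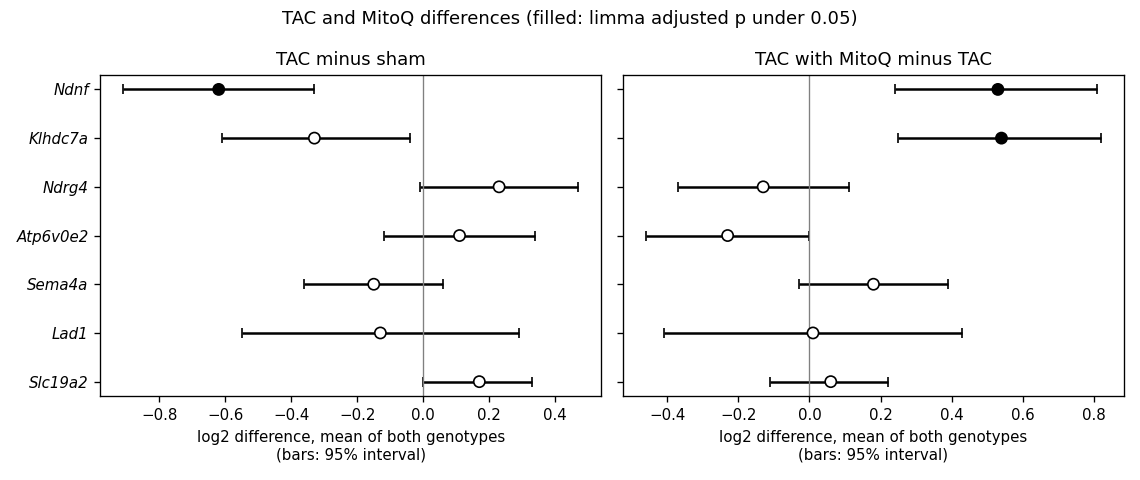
Points give the log2 difference of each gene as the mean of both labels, TAC minus sham (left) and TAC with MitoQ minus TAC (right), with 95% intervals from limma. Filled points passed at an adjusted p under 0.05: Ndnf at -0.62 and 0.53, and Klhdc7a at 0.54.

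Within each label the TAC and MitoQ differences are given as a description, since they share hearts with the differences used in the choice. Ndnf differed after TAC by -0.81 (SE 0.20) in Tg hearts and -0.44 (SE 0.20) in Con hearts, and with MitoQ by 0.90 (SE 0.20) in Tg hearts and 0.15 (SE 0.20) in Con hearts. Without Tg-TAC 6 and Con-TAC 6 these were -0.63 and -0.50 for TAC and 0.72 and 0.21 for MitoQ. Sema4a differed after TAC by -0.43 (SE 0.15) in Tg hearts and 0.12 (SE 0.15) in Con hearts, and with MitoQ by 0.50 (SE 0.15) in Tg hearts and -0.14 (SE 0.15) in Con hearts. All 6 Tg-TAC hearts were below the Tg-Sham mean of Sema4a and all 6 Tg-TAC-MQ hearts above the Tg-TAC mean, while 5 of 6 Con-TAC hearts were above the Con-Sham mean and 3 of 6 Con-TAC-MQ hearts above the Con-TAC mean. Klhdc7a differed with MitoQ by 0.70 (SE 0.20) in Tg hearts and 0.38 (SE 0.20) in Con hearts, or 0.54 and 0.46 without Tg-TAC 6 and Con-TAC 6. For TAC it differed by -0.41 (SE 0.20) in Tg hearts and -0.24 (SE 0.20) in Con hearts, or -0.25 and -0.32 without that pair, which turned the order of the labels. Whether the labels differ in these responses was not tested. For Atp6v0e2, Slc19a2, Ndrg4 and Lad1 the within-label differences lay between -0.23 and 0.29, or between -0.39 and 0.34 without Tg-TAC 6 and Con-TAC 6, both ends then being Atp6v0e2 in Tg hearts (-0.39 with MitoQ and 0.34 after TAC).

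Across the hearts of a group no pair of the 7 genes rose and fell together past the adjusted threshold. Over the 36 libraries, with each group's mean taken away, 16 of the 21 pairs of genes had a Pearson r above 0, from -0.115 (Atp6v0e2 and Slc19a2) to 0.531 (Ndrg4 and Atp6v0e2), and 0 of 21 passed after Benjamini-Hochberg adjustment (4 by Pearson and 3 by Spearman had an unadjusted permutation p under 0.05). Ndrg4 and Atp6v0e2 had r = 0.531 (permutation p = 0.0124, adjusted p = 0.13) and Spearman rho = 0.458 (permutation p = 0.0145, adjusted p = 0.152). That r was 0.326 once Tg-TAC 6 and Con-TAC 6 were left out and the group means taken again. Without Tg-TAC 6 and Con-TAC 6, 12 of the 21 were above 0, from -0.441 (Ndnf and Klhdc7a) to 0.365 (Atp6v0e2 and Sema4a). Ndnf and Ndrg4 had r = 0.518 (permutation p = 0.00481, adjusted p = 0.101) and rho = 0.325 (permutation p = 0.0752, adjusted p = 0.395), and r was 0.292 without Tg-TAC 6 and Con-TAC 6. Atp6v0e2 and Sema4a had r = 0.338 (permutation p = 0.0524, adjusted p = 0.183) and rho = 0.518 (permutation p = 0.00273, adjusted p = 0.0573).

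The tested genes most like each of the 7 over the same 36 group-centred values were others, and these likenesses are a description across libraries that share depth and handling. For Ndnf they were Slc43a3 (r = 0.746) and Agap2 (r = 0.692), for Sema4a Pck1 (r = 0.781) and Kcnj15 (r = 0.738), and for Klhdc7a Ccdc9b (r = 0.74) and D330025C20Rik (r = 0.735). For Ndrg4 they were Pamr1 (r = 0.79, and 0.571 without Tg-TAC 6 and Con-TAC 6) and Cacnb1 (r = 0.769 and 0.555), and for Atp6v0e2 4833412C05Rik (r = 0.768) and Syndig1 (r = 0.76). For Lad1 they were Rxfp1 (r = 0.736) and Gm11915 (r = 0.722), and for Slc19a2 Gm42979 (r = 0.724) and Gpatch2l (r = 0.665).

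Few genes of the families and pathways around the 7 were called by label in sham hearts and none with MitoQ. Of 70 relatives, 62 were tested, and in sham hearts 1 was higher under cSirt4-Tg, where 0.873% of all tested genes were called. It was Tcirg1, the a3 subunit of the V-ATPase, with 509.4 ± 88.0 in Tg-Sham against 316.4 ± 23.2 in Con-Sham, a difference of 0.67 (SE 0.15, adjusted p = 0.0277), which was lost in 7 of 36 fits that left out a library. After TAC 4 relatives were called, where 6.48% of all tested genes were. Among them Atp6ap2, an accessory subunit of the pump, was higher (0.35, SE 0.09), while Bckdha, of the branched-chain dehydrogenase (-0.60, SE 0.18), and Klhdc1 (-0.51, SE 0.16) were lower. Their adjusted p values lay between 0.0232 and 0.0457. The calls were lost in 5 (Atp6ap2), 9 (Bckdha) and 22 (Klhdc1) of 36 fits that left out a library. The count was 0 when limma was fitted to the hearts of these 2 groups alone (7 at an unadjusted p under 0.05), where 1 of all 16275 tested genes was called. It was 20 without Tg-TAC 6 and Con-TAC 6, where 4905 of the 16275 were called. With MitoQ limma called 0 relatives (3 at an unadjusted p under 0.05), edgeR 0 and DESeq2 0, where 0.0737% of all tested genes were called.

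The nearest kin named here did not pass for the label in the fit of all 36 libraries. Without Tg-TAC 6 and Con-TAC 6, 1 of the 3 NDRG relatives was called lower under the label after TAC, where 4905 of the 16275 tested genes were called in either direction. Atp6v0e, the other e subunit of the pump, had 727.1 ± 119.9 in Tg-Sham against 657.5 ± 45.5 in Con-Sham, a log2 difference of 0.13 (SE 0.11, adjusted p = 0.664), and 0.08 (SE 0.11, adjusted p = 0.672) after TAC. Ndrg2, the NDRG member with 29234.3 ± 837.7 in Tg-Sham against 31842.5 ± 1654.4 in Con-Sham, differed by -0.12 (SE 0.09, adjusted p = 0.598), and Ndrg1 and Ndrg3 by 0.15 (SE 0.17) and 0.13 (SE 0.15), neither past the threshold. After TAC, with both hearts kept, Ndrg2 averaged 29028.8 ± 3902.9 in Tg-TAC against 32746.3 ± 2937.2 in Con-TAC. Slc19a3, the other thiamine transporter, was low, with 23.6 ± 6.52 in Tg-Sham against 21.6 ± 10.6 in Con-Sham, a difference of 0.23 (SE 0.33, adjusted p = 0.819). Plxnb1, a plexin receptor of class 4 semaphorins, averaged 1850.5 ± 309.7 in Tg-Sham against 1834.9 ± 138.7 in Con-Sham. That these values missed the threshold does not show that the labels were equal.

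The relatives were also tested for TAC and MitoQ, averaged over both labels. Of the 62 tested, 9 rose and 11 fell after TAC (32.3%, beside 27.5% of all tested genes), and 10 rose and 10 fell with MitoQ (32.3%, beside 23.7%), with medians of 0.01 and -0.00. With the number class as a term 6 rose and 5 fell after TAC, and 4 rose and 4 fell with MitoQ. Without Tg-TAC 6 and Con-TAC 6, 10 rose and 12 fell after TAC, and 14 rose and 14 fell with MitoQ. The shares of all tested genes in that last fit are not given here. In the V-ATPase list 7 of 20 rose after TAC, beside 13.3% of all tested genes, and 0 fell, with a list median of 0.09 beside 0.00 for all tested genes. They were Atp6v1h, a regulatory subunit of the catalytic sector, which averaged 1365.2 ± 256.7 in Tg-TAC against 850.6 ± 83.3 in Tg-Sham and 1066.2 ± 183.6 in Con-TAC against 754.0 ± 94.2 in Con-Sham (0.58, SE 0.09, adjusted p = 2.83e-05), Atp6v0e (0.33), Atp6ap2 (0.25), Atp6v1f (0.24), Atp6ap1 (0.24), Atp6v1b2 (0.17, lost in 13 of 36 fits that left out a library) and Atp6v0a4 (2.63). With the number class as a term 4 of the 7 calls were left in the list. Atp6v0a4 is a low and uneven row, with 167.6 ± 107.6 in Tg-TAC against 36.8 ± 54.2 in Tg-Sham and 93.5 ± 143.5 in Con-TAC against 5.63 ± 4.62 in Con-Sham. With MitoQ 8 of the 20 fell, beside 10.3% of all tested genes, from -0.39 (Atp6v1h) to -0.17 (Atp6v1d), and Atp6v0a2 rose (0.23, SE 0.06, adjusted p = 0.00552). With the number class as a term 2 fell and 0 rose with MitoQ, and Atp6v1d (0.16), Atp6v1e1 (0.08) and Atp6v0b (0.24) changed sign. Under the scaling without mitochondrial transcripts, 3 fell and 2 rose with MitoQ and 10 rose after TAC. Without Tg-TAC 6 and Con-TAC 6, 11 fell and 1 rose with MitoQ, and 8 rose and 0 fell after TAC. Atp6v0e2 itself had 0.11 and -0.23 in these contrasts and did not pass in either.

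Around Sema4a, 4 of 9 class 4 semaphorins and receptors fell after TAC, beside 14.2% of all tested genes, and 0 rose. With MitoQ 5 rose, beside 13.3%, and 0 fell, and the list medians were -0.36 and 0.28. With the number class as a term 3 fell after TAC and 2 rose with MitoQ, and Plxnb2 changed sign with MitoQ (-0.26). Without Tg-TAC 6 and Con-TAC 6, 5 fell after TAC and 6 rose with MitoQ. Plxnb1 averaged 698.2 ± 419.6 in Tg-TAC against 1850.5 ± 309.7 in Tg-Sham, and 923.7 ± 418.5 in Con-TAC against 1834.9 ± 138.7 in Con-Sham (-1.35, SE 0.20, adjusted p = 2.73e-05). It averaged 1659.0 ± 144.3 in Tg-TAC-MQ and 1351.8 ± 416.4 in Con-TAC-MQ, a MitoQ difference of 1.02 (SE 0.20, adjusted p = 0.000382). Sema4d fell by 0.36 after TAC (SE 0.07, adjusted p = 0.0002) and rose by 0.20 with MitoQ (SE 0.07, adjusted p = 0.0226), and Sema4b fell by 0.41 after TAC (SE 0.10, adjusted p = 0.00374). Plxnb3 fell by 0.77 after TAC (SE 0.21, adjusted p = 0.00571). The MitoQ calls of Sema4b (0.28), Plxnb2 (0.22) and Plxnd1 (0.27) were lost in 25, 26 and 10 of 36 fits that left out a library.

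Around Slc19a2, 5 of 13 genes of thiamine transport and use fell after TAC, beside 14.2% of all tested genes, and 0 rose, all 5 being subunits or kin of the thiamine-dependent dehydrogenases and none a transporter. With the number class as a term 1 of the 13 was called lower, Dhtkd1 (-0.82, adjusted p = 0.0101). Dhtkd1, of the 2-oxoadipate dehydrogenase, averaged 91.2 ± 35.9 in Tg-TAC against 197.8 ± 41.6 in Tg-Sham and 110.4 ± 37.8 in Con-TAC against 172.9 ± 52.0 in Con-Sham (-0.91, SE 0.18, adjusted p = 0.000506). Ogdh, of 2-oxoglutarate dehydrogenase, fell by 0.34 (SE 0.09), Pdha1, of pyruvate dehydrogenase, by 0.32 (SE 0.08), and Bckdha and Bckdhb, of the branched-chain enzyme, by 0.44 (SE 0.13) and 0.45 (SE 0.14). With MitoQ Ogdh rose by 0.31 (SE 0.09, adjusted p = 0.0098) and Dhtkd1 by 0.56 (SE 0.18, adjusted p = 0.0248), the last call being lost without Con-TAC 4 or Tg-TAC-MQ 2, and both with the number class as a term (adjusted p = 0.091 and 0.585). Slc19a2 had 0.17 after TAC and 0.06 with MitoQ.

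In the remaining lists, Lamb3, a chain of laminin 332, fell after TAC by 0.70 (SE 0.19, adjusted p = 0.00583), and Cd151, a tetraspanin of laminin-binding integrins, rose by 0.17 (SE 0.05, adjusted p = 0.00696). Of the 10 basement membrane genes 3 passed for TAC, these among them, beside 27.5% of all tested genes. With MitoQ 2 of the 10 rose, beside 13.3% of all tested genes: Plec (0.40, SE 0.09) and Dst (0.39, SE 0.12), linkers of hemidesmosomes to filaments. Cd151 fell by 0.13 (SE 0.05), where 10.3% of all tested genes fell, and its call was lost in 16 of 36 fits that left out a library. With the number class as a term the directions of Plec (-0.18), Dst (-0.71) and Cd151 (0.02) turned and none of the 3 passed, and Lamb3 did not pass for TAC (-0.41, adjusted p = 0.153). Of the 7 tested Klhdc genes Klhdc1 fell after TAC by 0.46 (SE 0.11, adjusted p = 0.00226), and Klhdc4 fell with MitoQ by 0.22 (SE 0.08, adjusted p = 0.0477), lost in 28 of 36 fits that left out a library. Of all tested genes 14.2% fell after TAC and 10.3% with MitoQ. Limma called 0 of the 3 NDRG genes for TAC and 0 for MitoQ, with 0 at an unadjusted p under 0.05 in both, and edgeR and DESeq2 also called 0. With the number class as a term 1 of the 3 was called lower with MitoQ, with a list median of -0.33.

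**Figure D5:**
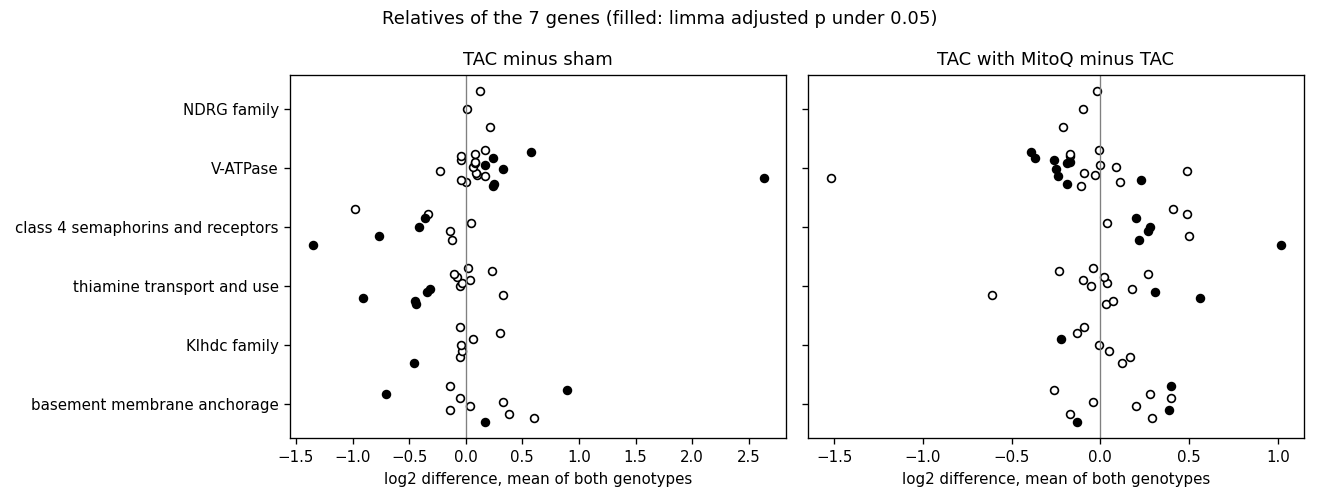
Each point is a tested relative of the 7 genes, placed by its log2 difference as the mean of both labels, TAC minus sham (left) and TAC with MitoQ minus TAC (right), with filled points past an adjusted p of 0.05. V-ATPase genes called after TAC lie right of 0 (0.17 to 2.63), and class 4 semaphorins and receptors called after TAC lie left of it (-1.35 to -0.36).

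Genes next to the 7 on the chromosome were read for the label as well, the nearest 2 tested on each side, 28 in all. In sham hearts 1 of the 28 was called, where 0.873% of all tested genes were, and the 28 were split evenly, with 14 above 0. It was Phlda3, the second tested gene before Lad1 (mm39 chr1:135693857-135696874), a p53-induced inhibitor of Akt, with a difference of 0.93 (SE 0.22, adjusted p = 0.0316), lost in 9 of 36 fits that left out a library. After TAC 5 of the 28 were called, where 6.48% of all tested genes were: Phlda3 (1.38, SE 0.22, adjusted p = 0.000752), Zfp862-ps (0.91, SE 0.21) and Rarres2, which encodes the chemoattractant chemerin (0.55, SE 0.16), both near Atp6v0e2, Lmna, a lamin of the nuclear envelope next to Sema4a (0.45, SE 0.12), and Blzf1 near Slc19a2 (-0.23, SE 0.07). In 36 fits that left out a library the call of Phlda3 was lost in 0, Zfp862-ps in 1, Lmna in 6, and Rarres2 and Blzf1 in 8 each. Of the 28, 0 were called after TAC when limma was fitted to those 12 hearts alone (9 at an unadjusted p under 0.05), where 1 of all 16275 tested genes was. Without Tg-TAC 6 and Con-TAC 6, 13 of the 28 were called, where 4905 of the 16275 were. With MitoQ limma called 0 of the 28 (3 at an unadjusted p under 0.05), and edgeR and DESeq2 called 0.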

How the data were processed

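RNA of 36 whole mouse hearts was sequenced, 6 in each of 6 groups taken from the labels, whose replicates are separate mice. Per the labels' protocols, hearts were snap frozen and their RNA, purified on RNeasy Fibrous Tissue columns, went into stranded libraries (NEBNext Ultra II Directional). The submitters' processing notes name Trim Galore, STAR and the build mm39. Versions, the read counter and its strand setting are not given here. The signal in the deposited table is a normalized read count for each gene and heart. The authors' values were checked to be whole reads divided by 1 factor per library: 100% came out whole within 0.01 read, so reads and depths were recovered. Each column was tied to its sample by its name.

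The fit was made on log2(value + 1) by limma 3.58.1 (R 4.3.3), all 36 libraries entering with 1 mean per group, which left 30 residual degrees of freedom, with trend and robust moderation, two-sided tests and Benjamini-Hochberg adjustment over the 16275 tested genes, at a threshold of 0.05. A fold change on this scale understates the change of low genes. The 7 genes were tested for TAC and MitoQ as means of both labels only. The genes, the lists of relatives and the markers were chosen with earlier results of these data known. Named beside the 7 are Sirt4, relatives and neighbours called in a comparison, the nearest kin, and the 2 genes most like each of the 7, with nearest kin that were not called chosen after their values were seen. Correlations used 100000 resamples.

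The alternatives tried were pseudocounts of 0.5 and 10, testing every listed gene or those with 50 or more, TMM factors, 1 total for all libraries without mitochondrial transcripts, a replicate block, a term for the number class of the library name, the groups compared alone, libraries named 7 to 14, the recovered reads in edgeR 4.0.16 and in DESeq2 1.42.0, leaving out each library in turn and, added later, leaving out Tg-TAC 6 and Con-TAC 6. The steps were tested on simulated data. Within groups no 2 libraries were copies (90 pairs, r from 0.874 to 0.99). A few results are not reported here.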

Additional observations from a re-analysis of the deposited data

Results flagged for a closer look

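Among the 42 sets of 6 hearts (7 genes in 6 groups), 6 held a heart whose gap to its nearest neighbour took more of the range of its group than Dixon's critical value allows. Chance gives such a gap in about 1 in 20 sets. Tg-TAC 6 was the heart in 2 of them, at 6466.7 for Ndrg4, where the other Tg-TAC hearts lay between 11321.1 and 13966.0, and at 261.3 for Atp6v0e2, where they lay between 479.5 and 577.3. The other 4 were sham hearts. Con-Sham 4 had 353.0 for Ndnf, with the other Con-Sham hearts at 202.5 to 226.3. Con-Sham 1 had 419.3 for Atp6v0e2, with the others at 198.0 to 280.3, and Con-Sham 2 had 49.5 for Lad1, with the others at 112.4 to 140.8. Tg-Sham 1 had 424.1 for Slc19a2, with the other Tg-Sham hearts at 289.0 to 336.5.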

How the results depend on the processing

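The differences of the 7 genes by label, TAC and MitoQ were kept in 1677 of the comparisons with an alternative and changed sign in 15. For TAC and MitoQ, kept means the same direction and side of the threshold. For the label, which was not tested, it means the same direction and a shift of less than 1 within-group SD. A call for TAC or MitoQ was gained in 7 comparisons and lost in 2. The lost calls were the MitoQ differences of Ndnf and Klhdc7a with the number class as a term, and the gained ones are given beside the genes above. Sign changes began from small differences, but some ended at larger ones. With the class as a term Atp6v0e2 for TAC went from 0.11 to -0.02. For MitoQ Sema4a went from 0.18 to -0.37, Lad1 from 0.01 to -0.38 and Slc19a2 from 0.06 to -0.26. For MitoQ Lad1 was also -0.02 without Tg-TAC 6 and Con-TAC 6 and -0.08 by edgeR and by DESeq2, and ranged from -0.08 to 0.12 when a library was left out, while Slc19a2 ranged from 0.0 to 0.08. With the class as a term the MitoQ differences of Atp6v1e1 (0.08), Atp6v1d (0.16), Atp6v0b (0.24), Cd151 (0.02), Plxnb2 (-0.26), Plec (-0.18) and Dst (-0.71) also changed sign.

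Same-numbered libraries deviated from their group means with r between -0.483 and 0.311, so the replicate numbers do not pair them. With the replicate block 92 genes were called for the label in sham hearts instead of 142, with 0 relatives and 0 neighbours, and 2 relatives after TAC, and the block changed no call of the 7 genes. For TAC the count of 4475 genes was 2518 with the class as a term, with 11 relatives, and 2 of the 7 genes passed under scaling without mitochondrial transcripts and without Tg-TAC 6 and Con-TAC 6. For MitoQ the count of 3851 was 1596 with the class as a term, with 0 of the 7 genes and 8 relatives. For the label in sham hearts the 142 genes were 241 with the class, 879 with the groups compared alone (4 relatives), 24 in libraries named 7 to 14 (0 neighbours), 500 without Tg-TAC 6 and Con-TAC 6 and 321 by DESeq2. For the label after TAC the 1054 genes were 620 without a filter (2 relatives, 3 neighbours), 3316 with the class (14 and 8), 1 with the groups compared alone (0 and 0), 4103 in libraries named 7 to 14 (18 and 11), 4905 without Tg-TAC 6 and Con-TAC 6 (20 and 13) and 1752 by DESeq2 (7 relatives). For the label with MitoQ the 12 genes were 19 without a filter, 27 with the groups compared alone, 28 without Tg-TAC 6 and Con-TAC 6 and 27 by DESeq2. The causes were not tested.

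Leaving out each library in turn gave 3767 to 5747 genes for TAC, with 1 to 2 of the 7 genes and 19 to 22 relatives, and 3115 to 4809 for MitoQ, with 2 to 3 of the 7 genes and 14 to 26 relatives. For the label it gave 29 (without Tg-Sham 6) to 347 (without Tg-TAC 6) in sham hearts with 0 to 1 relatives and 0 to 1 neighbours, 134 (without Tg-TAC 4) to 3642 (without Tg-TAC 6) after TAC with 0 to 14 relatives and 1 to 9 neighbours, and 7 (without Tg-TAC-MQ 2) to 64 (without Con-TAC-MQ 3) with MitoQ. Scaling without mitochondrial transcripts shifted the median over all tested genes by at most 0.08. Each library held at least 14.83 M reads, and the lowest value among the 7 genes was 49.5, for Lad1.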
